A study of Mus musculus with 30 samples.

Results

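The 10 genes described here encode transcription factors, and most of these genes are switched on within minutes to hours of a stimulus. They are the AP-1 subunits Jun, Junb, Jund, Fos, Fosb, Fosl1 and Fosl2, the related factor Atf3, the zinc finger factor Egr1 and the growth regulator Myc. They were chosen by gene symbol, and 14 of the 45037 probe sets on the Affymetrix mouse arrays (a probe set is the group of probes that reads 1 transcript; controls are not counted) carried one of these symbols. Jun, Jund, Fosl1 and Fosl2 had 2 probe sets each and the other 6 genes had 1 each. All 14 passed the filter on low signal.

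The arrays measured RNA of whole shaved back skin from female mice aged 8 to 12 weeks, of the strain given as 129–C57BL/6. The mice were wild type (WT) or deficient in D6, a receptor that binds inflammatory CC chemokines and removes them from the tissue. TPA, a phorbol ester that irritates skin, was painted on 3 times with 24 h between applications, at 50 μM according to the methods, and skin was taken at day 1, 2, 4 or 6 afterwards. Day 0 skin of each genotype is called untreated in the titles and acetone-treated in the descriptions. There were 10 groups, 1 for each genotype on each day, with 3 arrays apiece, labelled as biological replicates.

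AP-1 is a pair of basic leucine zipper proteins, either 2 Jun proteins or a Jun and a Fos protein, that binds a short DNA site known as the TPA response element. TPA acts like diacylglycerol on protein kinase C, and the MAP kinase cascade below it switches on Fos and Egr1 through serum response factor, while Jun activates its own promoter. In epidermis AP-1 takes part in the control of differentiation genes such as involucrin and of proteases, and Myc drives ribosome production and growth. Fos, Fosb, Egr1 and Atf3 transcripts are short-lived, whereas Jund is made steadily.

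The sequences before the start sites of the 4 genes below are shown because Junb and Fosl2 rose after TPA whereas Jun and Fos, the best known TPA-responsive genes of the group, moved little or fell. They are RefSeq sequences of mouse build GRCm38.p6, the 250 bases before the start site, 5′ to 3′ on the gene's strand, with the motifs that were found in capitals.
Junb (chr8:84978749-84978998, minus strand): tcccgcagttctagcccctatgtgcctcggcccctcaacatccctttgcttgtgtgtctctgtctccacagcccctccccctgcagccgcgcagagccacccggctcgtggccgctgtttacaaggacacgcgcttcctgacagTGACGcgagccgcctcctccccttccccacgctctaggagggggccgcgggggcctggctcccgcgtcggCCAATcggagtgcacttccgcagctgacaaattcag
Fosl2 (chr5:32136222-32136471, plus strand): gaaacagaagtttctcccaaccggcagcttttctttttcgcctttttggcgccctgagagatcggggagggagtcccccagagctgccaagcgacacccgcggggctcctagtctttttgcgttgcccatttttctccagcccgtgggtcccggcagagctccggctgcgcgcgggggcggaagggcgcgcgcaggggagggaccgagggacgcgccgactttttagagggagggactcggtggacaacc
Jun (chr4:95052223-95052472, minus strand): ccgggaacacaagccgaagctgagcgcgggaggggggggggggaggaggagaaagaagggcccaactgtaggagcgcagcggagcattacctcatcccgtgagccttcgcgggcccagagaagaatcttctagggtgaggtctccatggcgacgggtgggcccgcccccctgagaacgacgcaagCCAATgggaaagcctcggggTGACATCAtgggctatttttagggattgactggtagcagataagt
Fos (chr12:85473640-85473889, plus strand): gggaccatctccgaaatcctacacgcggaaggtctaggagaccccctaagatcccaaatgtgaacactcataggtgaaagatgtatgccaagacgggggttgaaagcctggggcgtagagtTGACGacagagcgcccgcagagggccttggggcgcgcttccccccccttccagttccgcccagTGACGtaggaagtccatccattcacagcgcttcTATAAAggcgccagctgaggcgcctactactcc
The capitals mark the short cAMP response element TGACG with the CCAAT box CCAAT in Junb, the element TGACATCA with CCAAT in Jun, and TGACG at 2 places with the TATA box TATAAA in Fos. No searched motif was found in Fosl2. The letters searched on both strands were the TPA response element TGACTCA, held by 4.46% of 32851 windows of the same length before RefSeq start sites, the cAMP response element TGACGTCA (1.55%), its shorter form TGACG (17.8%, full elements included), TGACATCA (2.93%), the CArG box (1.47%), TTCNNNGAA (7.02%), CACGTG (6.02%) and CCAAT (33.8%). TATAAA (7.59%) was searched on the gene's strand only. Windows were read for 7 of the 10 genes, and Fosl1, Egr1 and Myc are named only. A match describes the letters of the window and was not tested as a binding site. A motif farther than 250 bases before the start site, such as a CArG box, could not be found. A motif missing here therefore does not show that the gene lacks it.

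The medians of the arrays ran from 5.64 to 5.80 on the log2 intensity scale, and the lowest correlation between 2 arrays of 1 group was 0.97. The hybridization controls, RNAs added before hybridization, split the arrays into a set of 13 (mean log2 intensity 10.14 to 10.51, 6 WT and 7 D6-deficient) and a set of 17 (10.78 to 11.15, 9 WT and 8 D6-deficient). Of the 3 probe sets for the D6 gene Ccbp2, 1 was at 3.30 to 3.86 in D6-deficient arrays against 4.15 to 5.76 in WT arrays, another was lower by 0.69 and the last did not pass (difference -0.07, adjusted p = 0.795 by limma). The mean log2 level of 4 keratinocyte keratins lay between 12.48 and 13.74 at days 0, 1, 2 and 6, and at day 4 it was 10.56 to 12.01 in WT and 9.64 to 10.83 in D6-deficient skin. Neutrophil markers went from 6.35 to 7.22 at day 0 to 9.15 to 10.05 at day 4 in WT mice, and from 6.97 to 7.08 to 10.04 to 10.37 in D6-deficient mice. These markers included S100a8, which is also counted among the AP-1 targets below. From day 0 to day 1 in WT mice S100a8 rose by 4.05, and the group mean of the neutrophil markers went from 6.65 to 7.53. Skeletal muscle markers went from 13.11 to 13.47 at day 0 to 11.08 to 12.56 on the later days, and sebaceous gland markers from 8.64 to 9.03 to 4.43 to 7.76, over both genotypes. Adipocyte markers were at 12.96 to 13.26 at day 0 and at 11.95 to 13.02 at day 4. Hair follicle markers were at 8.24 to 12.25 at days 1 and 6 and at 4.52 to 5.02 at days 0, 2 and 4, over both genotypes. The part of these cell types in the changes below was not tested. In RNA of whole skin, fewer cells of a type and less RNA per cell cannot be told apart.

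Junb, Fosl1 and Fosl2 rose in skin of both genotypes and were highest at day 4 after TPA. Junb was up 3.21-fold in WT and 2.6-fold in D6-deficient mice, and Fosl1 3.6-fold and 3.37-fold. Fos, Fosb, Egr1 and Jun, the genes that respond first in cultured cells, were not called higher on any day, with the exception of a 1.25-fold higher Jun signal at day 1 in WT mice. The earliest treated skin was from day 1, so a response within hours of an application could not be seen. Falls were called for Jund on all 4 days, Myc at day 2 and Jun and Atf3 at day 6 in D6-deficient mice, and for Fos and Jun at day 6 in WT mice. The values below are log2 intensities, named by array number in the order 1, 2 and 3, and differences are in log2 units with their standard error (SE). Changes were tested by limma, with p adjusted by Benjamini-Hochberg over 36029 probe sets, and calls were made at an adjusted p under 0.05. Every change is taken against the 3 day 0 arrays of the same genotype, so the 4 days of 1 genotype share these controls.

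**Figure D1:**
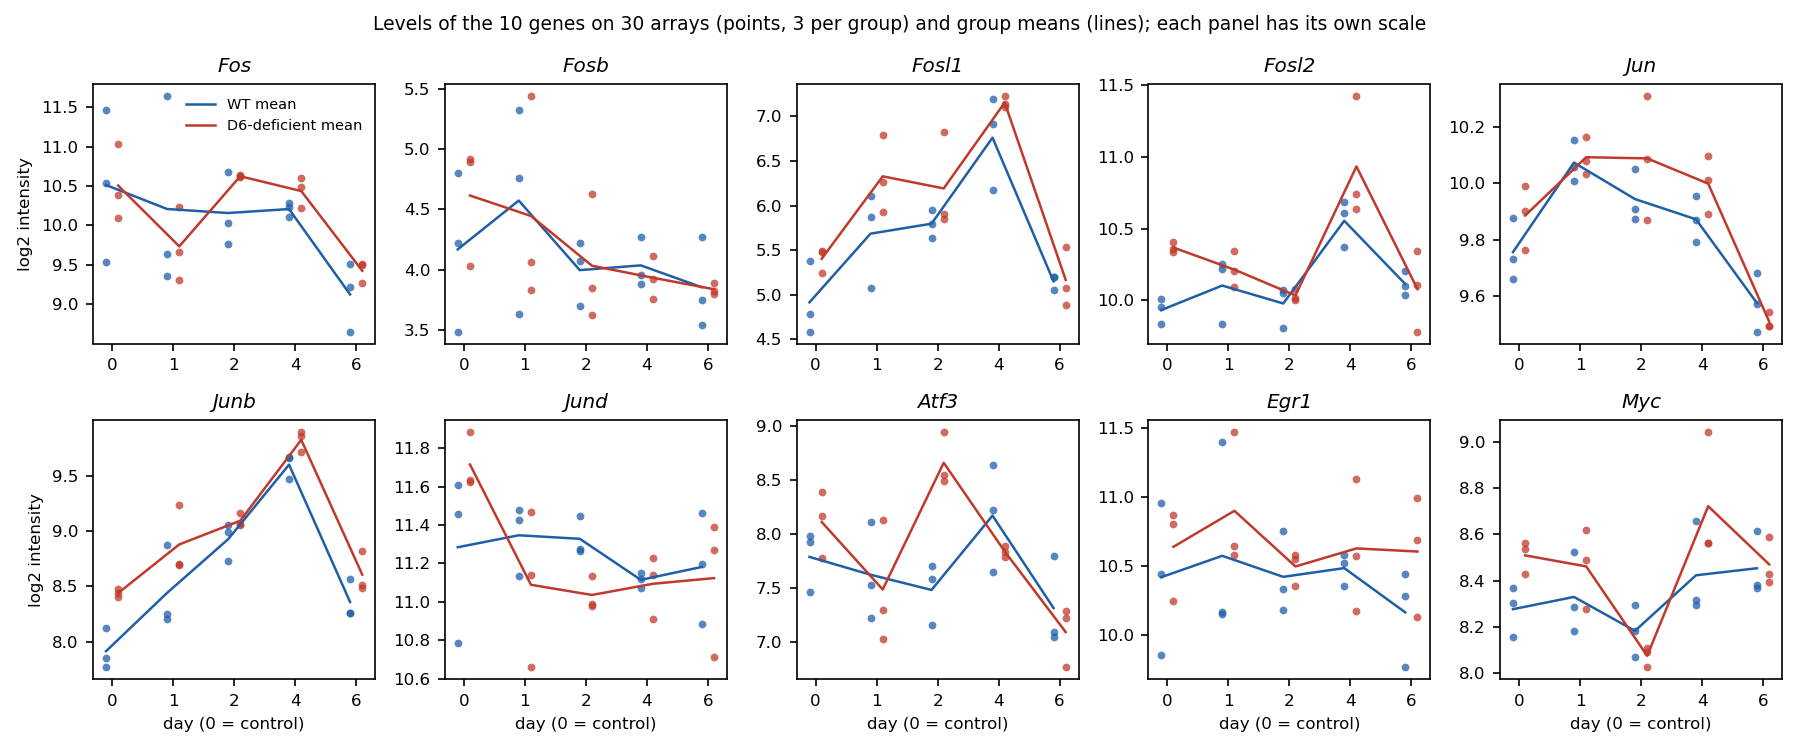
Log2 intensity (vertical axes, a scale of its own in each panel) of the 10 genes, by the probe set with the highest mean, at day 0, 1, 2, 4 and 6 (horizontal axes) in WT (blue) and D6-deficient (red) skin; points are single arrays, 3 per group, and lines join group means. Junb, Fosl1 and Fosl2 peaked at day 4 in both genotypes, whereas Fos, Fosb and Egr1 were spread widely within groups.

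Junb, an AP-1 subunit that pairs with Fos proteins and restrains growth in epidermis, stood at 8.13, 7.85 and 7.77 on the WT day 0 arrays. It was at 8.87, 8.25 and 8.20 at day 1, at 8.99, 9.05 and 8.73 at day 2, at 9.67, 9.47 and 9.66 at day 4 and at 8.26, 8.56 and 8.26 at day 6. Every TPA array of WT skin was above every day 0 array. The rise was 0.52 (SE 0.16, adjusted p = 0.0175) at day 1, 1.01 (adjusted p = 4.89e-05) at day 2, 1.68 (SE 0.16, adjusted p = 1.56e-08) at day 4 and 0.44 (adjusted p = 0.0464) at day 6. The calls of days 2 and 4 held whichever array was left out. The call of day 1 was lost without WT day 0 array 2 or 3 (adjusted p = 0.0563 and 0.0753) or WT day 1 array 1 (0.171), and that of day 6 without any of 5 of its 6 arrays (0.0516 to 0.226).

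In D6-deficient skin Junb was at 8.48, 8.44 and 8.40 at day 0, at 8.71, 8.69 and 9.24 at day 1 and at 9.16, 9.07 and 9.05 at day 2. It then reached 9.86, 9.89 and 9.71 at day 4 and returned to 8.48, 8.82 and 8.52 at day 6. Groups did not overlap with day 0 on any day, although the lowest day 6 array was only just above it. The rise was 0.44 (adjusted p = 0.0333) at day 1, 0.65 (adjusted p = 0.00205) at day 2 and 1.38 (SE 0.16, adjusted p = 2.16e-07) at day 4, and the day 6 difference of 0.17 did not pass (adjusted p = 0.463). The day 1 call was lost without any of the D6-deficient day 0 arrays (adjusted p = 0.0578 to 0.0853) or day 1 array 3 (0.224). In the order of the 10 group means, D6-deficient day 4 (9.82) came before WT day 4 (9.60), and both stood above D6-deficient day 2 (9.09) and WT day 2 (8.93) by more than the pooled SD between arrays of a group, 0.20. WT day 0 was lowest, 0.44 below the next group. D6-deficient day 0 (8.44), WT day 1 (8.44) and WT day 6 (8.36) lay within the pooled SD of each other.

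Fosl1, which encodes Fra-1, a Fos protein lacking the strong activation domain of Fos, rose most of the 10 genes. It was at 5.38, 4.58 and 4.78 on the WT day 0 arrays, at 6.11, 5.87 and 5.07 at day 1, at 5.64, 5.80 and 5.96 at day 2, at 7.20, 6.18 and 6.92 at day 4 and at 5.05, 5.20 and 5.19 at day 6. Day 2 and day 4 did not overlap with day 0, whereas day 1 and day 6 did. The day 4 change was 1.85 (SE 0.28, 95% interval 1.26 to 2.44, adjusted p = 1.57e-05) and that of day 2 was 0.88 (adjusted p = 0.0234). The day 1 change of 0.77 missed the threshold (adjusted p = 0.0507).

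In D6-deficient mice Fosl1 was at 5.49, 5.48 and 5.24 at day 0, at 5.93, 6.27 and 6.79 at day 1, at 5.91, 6.82 and 5.84 at day 2 and at 7.14, 7.10 and 7.23 at day 4. All 9 of these treated arrays were above the 3 day 0 arrays, and day 6 was back at 5.08, 5.54 and 4.88. The change was 0.93 (adjusted p = 0.013) at day 1, 0.79 (adjusted p = 0.0308) at day 2 and 1.75 (SE 0.28, adjusted p = 2.42e-05) at day 4. The second, dimmer probe set rose on the same days, by 0.81, 0.95 and 1.47 in WT and by 0.69, 0.66 and 0.99 in D6-deficient mice (adjusted p at most 0.0469). Only the day 4 calls and the WT day 2 call of the dimmer probe set held without each array in turn. The D6-deficient day 2 call rested on array 2 of that day among others, without which the change was 0.47 (adjusted p = 0.237), and the day 1 call on array 3, without which it was 0.69 (adjusted p = 0.0834). The WT day 2 call of the brighter probe set was lost without any of 4 arrays, WT day 0 array 2 or 3 or day 2 array 2 or 3 (adjusted p = 0.0591 to 0.108), and the WT day 1 call of the dimmer one without WT day 0 array 2 or 3 or day 1 array 1 or 2 (0.0626 to 0.111).

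Fosl2, which encodes Fra-2, showed a smaller rise that stood out only at day 4. On its brighter probe set it was at 10.01, 9.84 and 9.95 in WT day 0 skin and at 10.61, 10.37 and 10.68 at day 4, and the other 9 treated WT arrays lay between 9.81 and 10.25. In D6-deficient skin it was at 10.41, 10.36 and 10.34 at day 0 and at 11.42, 10.64 and 10.74 at day 4. Neither pair of groups overlapped, and 1 D6-deficient array of day 4 stood well above the others. The change was 0.62 (1.54-fold, SE 0.16, adjusted p = 0.00316) in WT and 0.57 (1.48-fold, adjusted p = 0.00607) in D6-deficient mice, and the second fell to 0.32 (adjusted p = 0.0751) without that array, number 1. The dimmer probe set rose more at day 4, by 0.89 (adjusted p = 9.72e-05) in WT and 1.13 (2.19-fold, adjusted p = 3.67e-06) in D6-deficient mice, and both calls held without each array in turn. That probe set was also called at day 1 in both genotypes (0.44, adjusted p = 0.0468, and 0.41, adjusted p = 0.0481) and at day 2 in WT mice (0.55, adjusted p = 0.0119), where the brighter one changed by 0.17, -0.15 and 0.05. Each of these earlier calls was lost without at least 1 array, that of WT day 2 without day 2 array 2 (adjusted p = 0.0607).

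Jun, the subunit that forms the most active AP-1 pairs with Fos, varied least of the 10 genes. Its brighter probe set was at 9.66, 9.73 and 9.88 on WT day 0 arrays, at 10.15, 10.01 and 10.06 at day 1 and at 9.68, 9.57 and 9.47 at day 6. Day 1 lay wholly above day 0, whereas day 6 reached into it. The day 1 rise was 0.32 (SE 0.10, adjusted p = 0.0231), was lost without any of 4 of the 6 arrays (WT day 0 array 1 or 2, or day 1 array 1 or 3; adjusted p = 0.0540 to 0.104) and was not seen on the other probe set (-0.03). In D6-deficient skin it was at 9.99, 9.76 and 9.90 at day 0 and at 9.49, 9.54 and 9.49 at day 6, with no overlap. That fall of 0.38 on the log2 scale (1.3-fold, adjusted p = 0.00594) held without each array in turn, and the other probe set changed by -0.35 (adjusted p = 0.0305) on the same day in D6-deficient and by -0.34 (adjusted p = 0.0466) in WT mice. The calls of the second probe set were lost without any of several arrays, in WT mice without day 6 array 2 among others (adjusted p = 0.221).

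Jund, the steadily expressed Jun protein, had its highest group mean in D6-deficient day 0 skin. Its brighter probe set was at 11.62, 11.89 and 11.64 on the D6-deficient day 0 arrays and at 11.46, 11.61 and 10.78 on the WT ones, so the D6-deficient arrays lay just above. This day 0 difference of 0.43 did not pass (adjusted p = 0.329), and it was 0.18 without WT day 0 array 3 (adjusted p = 0.79). After TPA the D6-deficient arrays were at 10.66, 11.14 and 11.47 at day 1, then at 11.14, 10.99 and 10.98 (day 2), 11.23, 11.14 and 10.91 (day 4) and 10.71, 11.27 and 11.39 (day 6), all 12 below the day 0 arrays. The changes were -0.63, -0.68, -0.62 and -0.59 (SE 0.20, adjusted p = 0.0175, 0.00959, 0.0158 and 0.0275), against 0.06, 0.04, -0.17 and -0.10 in WT mice (adjusted p at least 0.538). The difference between the genotypes' changes did not pass on any day (-0.69, -0.72, -0.45 and -0.49, adjusted p = 0.428, 0.166, 0.622 and 0.723). The day 1, 4 and 6 calls were lost without D6-deficient day 0 array 2 (adjusted p = 0.0738, 0.0679 and 0.105) and without 1 array of the day itself. The dimmer probe set (3.58 to 4.35 on all arrays) was called on no day and changed by 0.20, 0.09, 0.18 and 0.03 in D6-deficient mice.

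Fos, the founding member of its family, was at 11.46, 9.54 and 10.54 on the WT day 0 arrays, at 11.64, 9.63 and 9.35 at day 1 and at 10.03, 10.68 and 9.76 at day 2. In WT mice it was then at 10.28, 10.11 and 10.23 at day 4 and at 9.22, 9.51 and 8.65 at day 6. The 3 arrays of day 0 and of day 1 lay far apart, and day 6 alone lay wholly below day 0. The day 6 fall of 1.39 on the log2 scale (2.61-fold, SE 0.44, adjusted p = 0.0247) became 0.91 without WT day 0 array 1 (adjusted p = 0.181), and was also lost without WT day 0 array 3 (0.0577) or day 6 array 3 (0.0960). In D6-deficient skin Fos was at 11.04, 10.39 and 10.09 at day 0, at 9.66, 9.30 and 10.24 at day 1 and at 10.61, 10.64 and 10.62 at day 2. It was at 10.48, 10.60 and 10.22 at day 4 and at 9.51, 9.50 and 9.27 at day 6, the last again wholly below day 0. The day 6 change there was -1.08 (SE 0.44, adjusted p = 0.0626) and did not pass. No 2 neighbours in the order of the 10 Fos group means, from 10.62 in D6-deficient day 2 to 9.13 in WT day 6, were farther apart than the pooled SD of 0.58.

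Fosb, a close relative of Fos, was dim, between 3.49 and 5.44 on all arrays, and was called in no comparison. Its group means ran from 4.62 in D6-deficient day 0 to 3.84 in D6-deficient day 6 skin. The largest change, -0.78 at day 6 in D6-deficient mice, had an adjusted p of 0.140. Egr1, a zinc finger factor induced together with Fos, was bright, between 9.77 and 11.47, and was called in no comparison either. Its group means ran from 10.90 in D6-deficient day 1 to 10.16 in WT day 6 skin, and its largest changes were 0.26 at day 1 in D6-deficient (95% interval -0.41 to 0.93) and -0.25 at day 6 in WT mice (-0.92 to 0.41). The day 1 interval leaves room for a rise of the size called for Junb in the same group (0.44). The WT day 6 interval ends just below the Junb rise of that group (0.44).

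Atf3, a stress-induced factor that mostly represses, was the 1 gene with a same-day difference between the genotypes. At day 2 it was at 8.55, 8.95 and 8.49 in D6-deficient and at 7.16, 7.58 and 7.70 in WT skin, without overlap. At day 0 it was at 8.39, 8.17 and 7.77 in D6-deficient and at 7.98, 7.46 and 7.92 in WT skin, which overlapped. The day 2 difference was 1.18 (2.27-fold, SE 0.28, 95% interval 0.60 to 1.76, adjusted p = 0.0128). It was 1.02 without WT day 2 array 1 (adjusted p = 0.0868) and 1.04 without D6-deficient day 2 array 2 (adjusted p = 0.0940), so the call was lost in both cases. Taken from each genotype's own day 0, the changes at day 2 were 0.55 (adjusted p = 0.131) in D6-deficient and -0.31 (adjusted p = 0.463) in WT mice, and their difference of 0.86 did not pass (adjusted p = 0.266). At day 1 the D6-deficient change of -0.63 (adjusted p = 0.0855) became -0.95 (adjusted p = 0.0120) without day 1 array 3. At day 6 Atf3 fell by 1.02 (2.03-fold, SE 0.28, adjusted p = 0.00732) in D6-deficient mice, to 7.22, 6.76 and 7.29, and that call held without each array in turn. The WT day 6 arrays were at 7.80, 7.05 and 7.09, a change of -0.47 (adjusted p = 0.248). On day 2, when the Atf3 difference was seen, 3 of 5 neutrophil and 2 of 7 macrophage probe sets were also higher in D6-deficient skin, with mean neutrophil levels of 9.40 to 10.42 against 7.89 to 8.55 and mean macrophage levels of 11.47 to 11.65 against 10.95 to 11.13. Their part in the Atf3 difference was not tested.

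Myc, which pairs with Max to switch on growth genes, changed in 1 comparison. It was at 8.56, 8.54 and 8.43 on the D6-deficient day 0 arrays and at 8.11, 8.03 and 8.09 at day 2, without overlap. That fall of 0.43 on the log2 scale (1.35-fold, SE 0.13, adjusted p = 0.00974) held without each array in turn. In WT mice the corresponding arrays were at 8.31, 8.16 and 8.37 and at 8.29, 8.18 and 8.07, a change of -0.09 (adjusted p = 0.643), and the difference of the 2 changes, -0.34, did not pass (adjusted p = 0.364). At day 4 Myc was at 9.04, 8.56 and 8.56 in D6-deficient skin, the highest of the 10 group means.

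Counted over the 14 probe sets, 4 were called higher and 0 lower at day 1 in WT mice, where 11.4% of all tested probe sets were called higher and 12.7% lower. At day 2 there were 4 higher and 0 lower (11.0% and 15.0% of all tested), at day 4 there were 5 higher and 0 lower (17.3% and 21.8%), and at day 6 there were 1 higher and 2 lower (10.2% and 11.9%). In D6-deficient mice there were 4 higher and 1 lower at day 1 (18.2% and 18.1% of all tested), 3 higher and 2 lower at day 2 (17.5% and 20.6%), 5 higher and 1 lower at day 4 (18.8% and 22.4%) and 0 higher and 4 lower at day 6 (16.0% and 15.7%). The 5 higher probe sets of day 4 belonged to Junb, Fosl1 and Fosl2 in both genotypes and made up 35.7% of the 14, and the 4 lower ones of day 6 in D6-deficient mice, 28.6%, belonged to Jun, Jund and Atf3. The day 2 share of 21.4% higher in D6-deficient mice was close to that of all tested probe sets. The median change of the 14 at day 4 was 0.20 in WT and 0.15 in D6-deficient mice, against 0.01 in both over all tested, and at day 6 it was -0.01 and -0.26, against medians over all tested of -0.00 and -0.01.

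**Figure D2:**
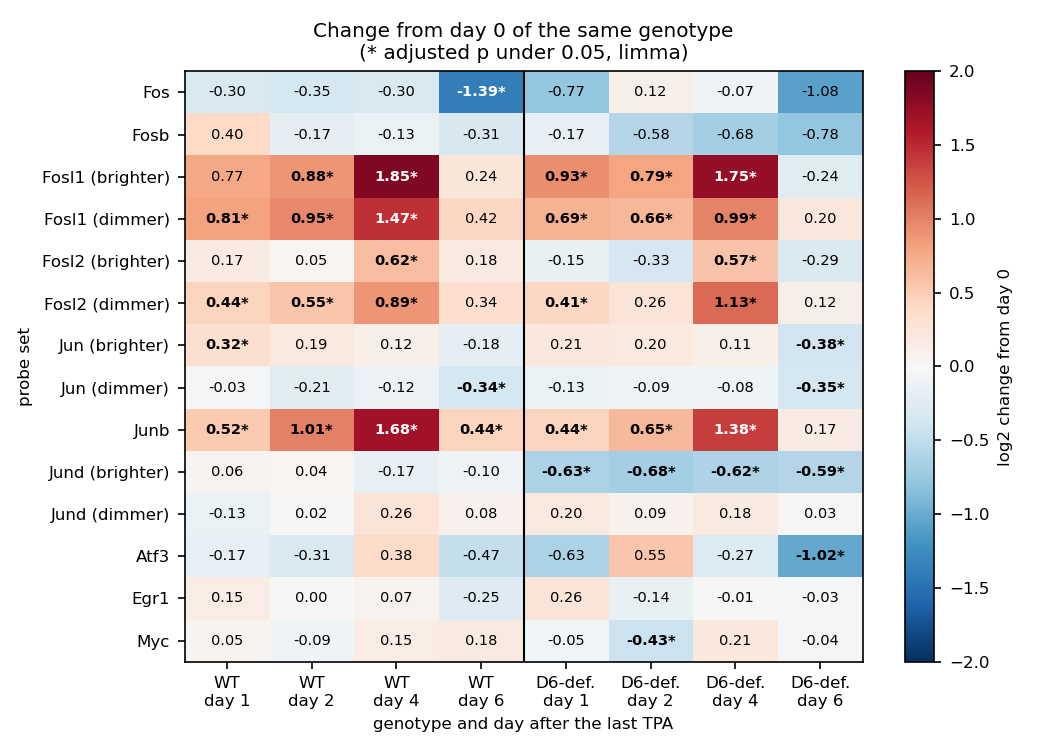
Change in log2 intensity from day 0 of the same genotype (colour and printed value, scale from -2 to 2) for the 14 probe sets (rows) at each day after TPA in WT (4 columns on the left) and D6-deficient mice (4 columns on the right); an asterisk marks an adjusted p under 0.05 by limma, and "brighter" and "dimmer" tell the 2 probe sets of a gene apart. The rises of Junb and Fosl1 were largest at day 4, 1.68 and 1.85 in WT and 1.38 and 1.75 in D6-deficient skin.

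Between the genotypes, Junb was higher in D6-deficient skin by 0.32 (1.25-fold, SE 0.07, adjusted p = 0.00657) averaged over the 5 days, and this held without each of the 30 arrays in turn. It was the 1 member of 14 called in that comparison (5.52% of all tested probe sets were called in either direction, and 3 members had an unadjusted p under 0.05). By day the difference was 0.52 at day 0 (adjusted p = 0.0950), 0.44 at day 1, 0.17 at day 2, 0.22 at day 4 and 0.25 at day 6 (adjusted p at least 0.471 from day 1 on). The D6-deficient arrays lay wholly above the WT arrays at days 0 and 4 and overlapped with them at days 1, 2 and 6. Fosl1 was 0.39 higher over all days on its brighter probe set (adjusted p = 0.0776), a value that passed without any 1 of 3 arrays (WT day 0 array 1, WT day 1 array 1 or D6-deficient day 6 array 3; adjusted p = 0.0458 to 0.0493).

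On single days, limma called 0 members at day 0 (1.57% of all tested called; 3 members at an unadjusted p under 0.05), 0 at day 1 (0.0555%; 2 unadjusted), 1 at day 2 (4.45%; Atf3), 0 at day 4 (0.513%; 3 unadjusted) and 0 at day 6 (0.125%; 0 unadjusted). For Fosl2 at day 4, the 0.44 higher signal of the dimmer probe set in D6-deficient skin (adjusted p = 0.281) became 0.68 (adjusted p = 0.0319) without WT day 4 array 3. For the difference between the genotypes' changes from day 0, limma called 0 members at each day, with 1, 2, 0 and 1 at an unadjusted p under 0.05 at days 1, 2, 4 and 6 (0.0194%, 5.40%, 0.608% and 0.0250% of all tested called). For Junb these differences were -0.09, -0.36, -0.30 and -0.28 (SE 0.22), and at day 4 the 95% interval ran from -0.76 to 0.16. For Fosl1 the day 4 difference was -0.10, with an interval from -0.93 to 0.73. At 3 arrays a group an exact permutation test of 1 probe set cannot go below p = 0.1.

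**Figure D3:**
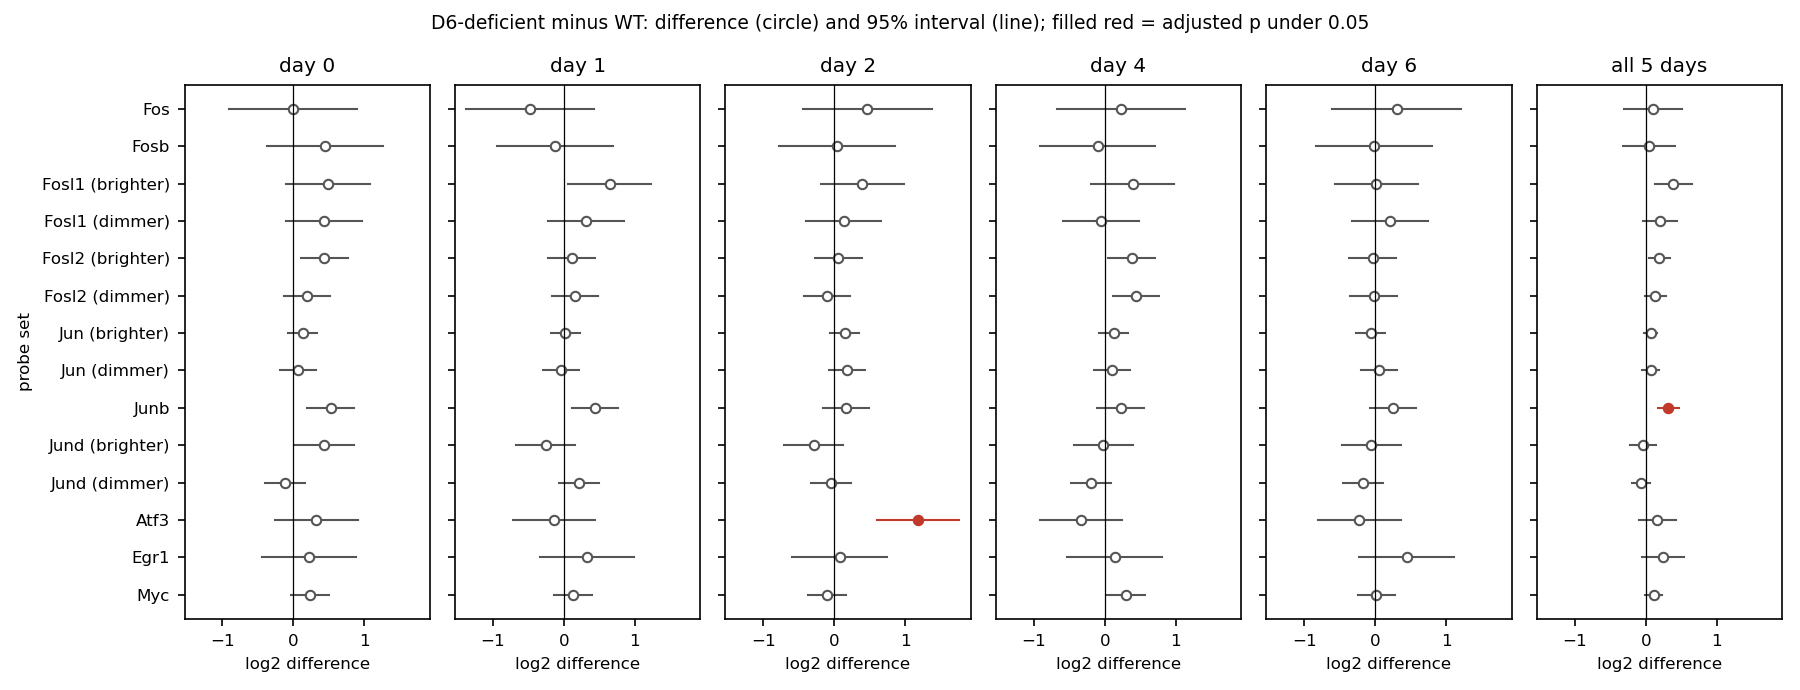
Difference in log2 intensity, D6-deficient minus WT (horizontal axes), for the 14 probe sets at each day and averaged over the 5 days; circles are limma estimates, lines their 95% intervals, and filled red circles passed an adjusted p under 0.05. Atf3 at day 2 (1.18) and Junb over all days (0.32) passed.

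Fos, Fosb, Egr1, Fosl1 and Atf3 differed strongly between arrays of the same group. The pooled SD within groups was 0.58 for Fos, 0.52 for Fosb, 0.43 for Egr1 and 0.37 for Fosl1 and Atf3, and 98.6%, 98.0%, 95.8%, 93.3% and 93.1% of all tested probe sets varied less. Jund was at 0.26, Fosl2 and Junb at 0.20 and Myc at 0.15, around the median of all tested probe sets, 0.19. Jun was at 0.11, and 6.95% of all tested probe sets varied less. The intervals of Fos, Fosb and Egr1 were therefore the widest of the 10 genes, and a change of a given size was less likely to be called for them than for Jun or Myc.

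The arrays that were high for 1 of these genes within their group were often high for others of them. The array with the highest Fos signal was also the highest for Junb in 8 of 10 groups, for Fosb and Fosl1 in 7, for Egr1, Fosl2 and Atf3 in 6, for Jun and Myc in 5 and for Jund in 2. With 3 arrays a group, some of these matches come without any relation. In D6-deficient day 2 skin the Fos arrays lay between 10.61 and 10.64, so which was highest there means little. Over the 30 arrays, with each group's mean removed, Fos and Egr1 correlated at r = 0.80 (rho = 0.72), Fos and Junb at r = 0.79 (rho = 0.71) and Fosb and Atf3 at r = 0.83 (rho = 0.86). By permutation within groups, two-sided with 100000 draws, the p of r was 0.0005, 0.00036 and 3e-05 (0.00608, 0.00608 and 0.00135 after Benjamini-Hochberg over the 45 pairs of genes) and that of rho was 0.00151, 0.00096 and 3e-05, where 1e-05 is the smallest these draws can give. This relation was examined after the spread had been seen. Of the 45 pairs, 14 passed after adjustment, and these 3 were among the strongest. In all 43 had a positive r, with a median of 0.42, and pairs such as Fos and Fosl1 (r = 0.52, permutation p = 0.0316, adjusted p = 0.0792) and Atf3 and Egr1 (r = 0.36, permutation p = 0.127, adjusted p = 0.206) did not pass. Against all 36028 other tested probe sets, Egr1 had rank 1 and Junb rank 3 for Fos, and Atf3 had rank 1 for Fosb, where the median r over all was 0.01 and 0.00.

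The correlations were also computed within the sets of arrays given by the hybridization controls. Within the 13-array set, of which 8 arrays had a partner of their group, r was 0.81 for Fos and Egr1, 0.77 for Fos and Junb and 0.98 for Fosb and Atf3, and within the 17-array set (13 arrays) it was 0.83, 0.72 and 0.85. In the 13-array set these partners came only in pairs, whose 2 deviations are equal and opposite. Each r within a set thus rests on fewer independent values than it has arrays. Without the 2 arrays farthest from the median, r of these pairs was 0.72, 0.76 and 0.79. Other pairs did not all keep their sign within the sets. Fosl1 and Junb (r = 0.58 over the 30 arrays) were at -0.23 in the 13-array set and at 0.74 in the 17-array set. Jun and Junb (0.24) were at -0.80 and 0.64, whereas Fosb and Fosl1 (0.75) were at 0.92 and 0.84. The deviations of Fos also went with those of the neutrophil markers (r = 0.41) and of the hybridization controls (r = 0.37, and 0.43 for Egr1 and 0.44 for Junb), and r was 0.08 with those of the keratins, all as descriptions over the same 30 arrays. The part of neutrophils and of hybridization in these deviations was not tested.

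**Figure D4:**
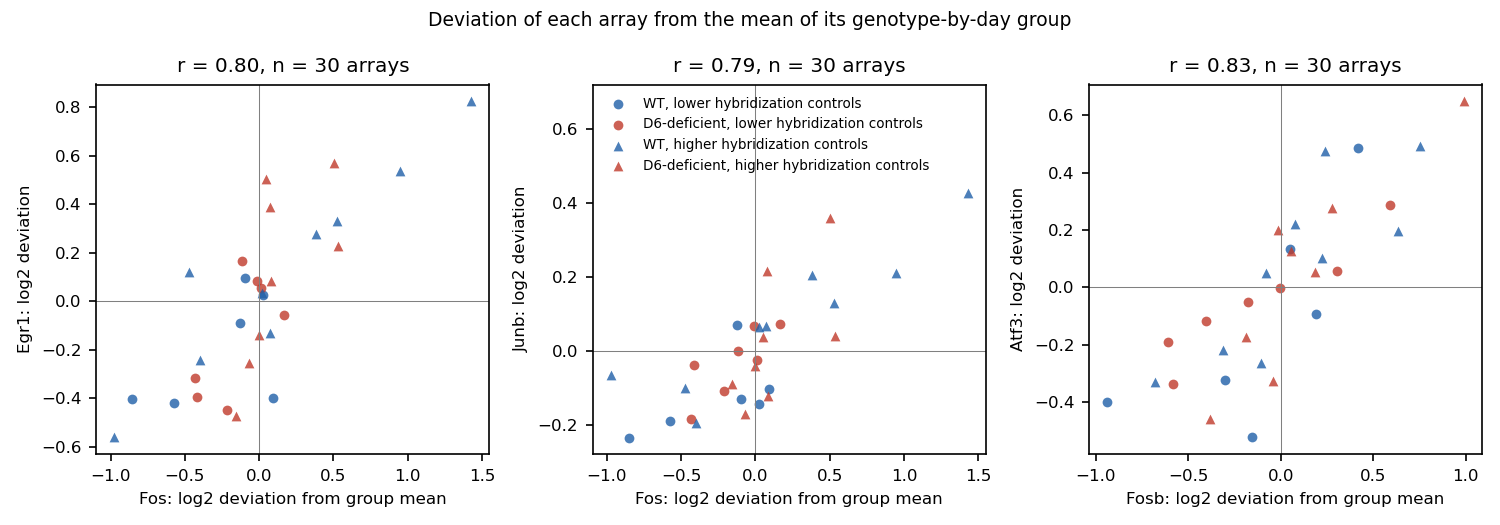
Deviation of each of the 30 arrays from the mean of its group of genotype and day (log2 intensity), Egr1 and Junb against Fos and Atf3 against Fosb; blue is WT, red D6-deficient, circles and triangles are the arrays with lower and higher hybridization controls, and r is Pearson's correlation. Points run from lower left to upper right in all 3 panels (r = 0.80, 0.79 and 0.83), with both symbols and both colours along the trend.

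Among all genes, those whose 10 group means were most like a member's were named for each member with a called TPA change, by Pearson's r as a description. For Junb they were Cebpb, a C/EBP factor of inflammation and differentiation (r = 0.988), the lipid-sensing receptor gene Ppard (0.987) and the clock factor gene Bhlhe40 (0.986), and over the 30 single arrays r was 0.951, 0.898 and 0.937. For the genes named below, r over the single arrays was lower, from 0.375 for Atf3 and Asph to 0.879 for Jund and 4833420L08Rik. For Fosl1 they were Itprip (0.966), the kinase gene Pim1 (0.966) and the cytokine gene Csf2 (0.964), and for Fosl2 Spsb1 (0.968), Atp11a (0.960) and Pgs1 (0.953). For Jun they were the clock gene Per2 (0.942), Tmcc1 (0.897) and the adrenoceptor gene Adra2b (0.893), and for Jund Fam134b (0.957), 4833420L08Rik (0.956) and Cplx2 (0.953). For Atf3 they were Efhb (0.946), the DNA methyltransferase gene Dnmt3a (0.944) and Asph (0.915), for Fos Osgep (0.940), Galnt7 (0.918) and Col4a3bp (0.915), and for Myc Cdc42ep4 (0.981), Lmbr1l (0.933) and Thsd1 (0.932). With only 10 means and a search over all tested probe sets, a high r can come from the search alone.

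Other genes of the pathway were counted on lists at day 4, the day with most calls. Of 24 probe sets for bZIP partners of AP-1, 12 were higher and 3 lower in WT and 12 higher and 4 lower in D6-deficient mice (50% higher in both, against 17.3% and 18.8% of all tested). Cebpd, an acute-phase regulator, rose by 2.01 (adjusted p = 1.05e-09) in D6-deficient and by 1.55 in WT mice. The small Maf gene Maff rose by 1.15 and 0.83, and Batf, an AP-1 partner in lymphocytes, by 1.13 and 1.16. Atf2 was lower on 3 probe sets and higher on 1 in both genotypes, and Mafg was lower on 1 of 2 probe sets in D6-deficient mice.

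Of 47 probe sets for further immediate early genes, 18 were higher and 1 (Dusp4) lower in WT mice at day 4 (38.3% and 2.13%, against 17.3% and 21.8% of all tested), and 20 higher and 8 lower in D6-deficient mice (42.6% and 17%, against 18.8% and 22.4%). Ier3, a survival gene induced by stress, rose by 2.13 (adjusted p = 3.78e-11) in D6-deficient and by 2.42 in WT mice, the MAP kinase phosphatase gene Dusp5 by 1.62 and 1.82, and the matricellular gene Cyr61 by 1.51 and 1.43. Lower at day 4 in D6-deficient mice were Klf4, Klf10, Nr4a1, Nr4a2, Srf and Dusp4. On the other days the same list had more lower than higher probe sets in D6-deficient mice, 17 against 9 at day 1 (18.1% lower and 18.2% higher over all tested), 16 against 10 at day 2 (20.6% and 17.5%) and 16 against 4 at day 6 (15.7% and 16.0%). In WT mice these counts were 5 against 9 (12.7% and 11.4% of all tested), 7 against 12 (15.0% and 11.0%) and 8 against 6 (11.9% and 10.2%), and the difference between the genotypes' counts was not tested. The difference between the genotypes' changes passed for 5 of the 47 probe sets at day 2, of Klf4, Egr2, Egr3 and Nr4a3 (10.6%, against 5.40% of all tested), all towards lower values in D6-deficient mice. Compared directly at day 2, none of these 5 probe sets passed between the genotypes (adjusted p = 0.113 to 0.996). Klf4, Egr3 and Nr4a3 each had another tested probe set that was not called for the difference of changes.

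The signalling list, from protein kinase C to the Elk factors, had shares close to those of all tested probe sets. At day 4, 6 of 44 probe sets were higher and 10 lower in WT mice, and D6-deficient mice had 8 of each. Map3k8, a kinase upstream of ERK, rose by 1.06 (adjusted p = 1.93e-06) in D6-deficient and 0.99 in WT mice. Prkca, a TPA-binding protein kinase C, fell on 1 of 3 probe sets by 0.93 (adjusted p = 7.16e-05) and 1.14, and changed by -0.01 and 0.09 on the others in D6-deficient mice. Rasgrp1, another TPA-binding protein, fell by 0.97 on the brightest of 4 probe sets in D6-deficient mice (adjusted p = 0.000244), where the WT change was -0.38 (adjusted p = 0.125).

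Of 35 probe sets for textbook AP-1 targets in skin (23 of 25 genes tested), at day 4 WT mice had 23 higher and 3 lower and D6-deficient mice 26 higher and 4 lower, with medians of 2.41 and 2.56 against 0.01 over all tested. Mmp13, a collagenase, rose by 7.0 (adjusted p = 3.02e-11) in D6-deficient and by 7.17 in WT mice, the cytokine gene Il6 by 6.58 and 6.32, and the protease inhibitor gene Timp1 by 5.49 and 5.48. The lower ones were the cornified envelope genes Lor and Ivl in D6-deficient and Lor and Lif in WT mice. Several of these genes are also expressed by leukocytes, whose markers moved on the same day as given above, and their part in these counts was not tested. S100a8 was both on this list and among the neutrophil markers.

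Of 41 probe sets for textbook Myc targets, at day 4 WT mice had 26 higher and 1 (Ccnd2) lower and D6-deficient mice 20 higher and 0 lower, while Myc itself changed by 0.15 and 0.21 (adjusted p = 0.393 and 0.198). Eif4a1, an RNA helicase of translation, rose by 1.47 (adjusted p = 6.05e-05) in D6-deficient and 1.10 in WT mice on 1 of its probe sets, Nme1 by 1.45 and 1.62, and Odc1, the first enzyme of polyamine synthesis and long known to respond to TPA, by 1.34 and 1.26. The Myc partner list had 5 higher and 4 lower of 21 probe sets in WT (23.8% and 19%, close to the 17.3% and 21.8% of all tested) and 7 higher and 4 lower in D6-deficient mice (33.3% and 19%, against 18.8% and 22.4%). Mxd1, a repressor that competes with Myc for Max, rose by 2.87 (adjusted p = 4.00e-10) in D6-deficient and 2.34 in WT mice, and Mycl1 fell by 1.68 and 1.29 on 1 of 3 probe sets. Max rose by 1.03 (adjusted p = 0.0409) in D6-deficient mice, and its WT change was 0.45 (adjusted p = 0.396). The Max call was lost without D6-deficient day 0 array 2 or 3 or day 4 array 2, and without the last the change was 0.68 (adjusted p = 0.231). The Myc partner list had its highest counts at day 1, 12 higher in WT and 13 in D6-deficient mice (11.4% and 18.2% of all tested), and at days 1 and 6 the mean of 5 hair follicle markers was 8.24 to 12.25 against 4.52 to 5.02 at the other days. The part of the hair follicle in these counts was not tested.

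**Figure D5:**
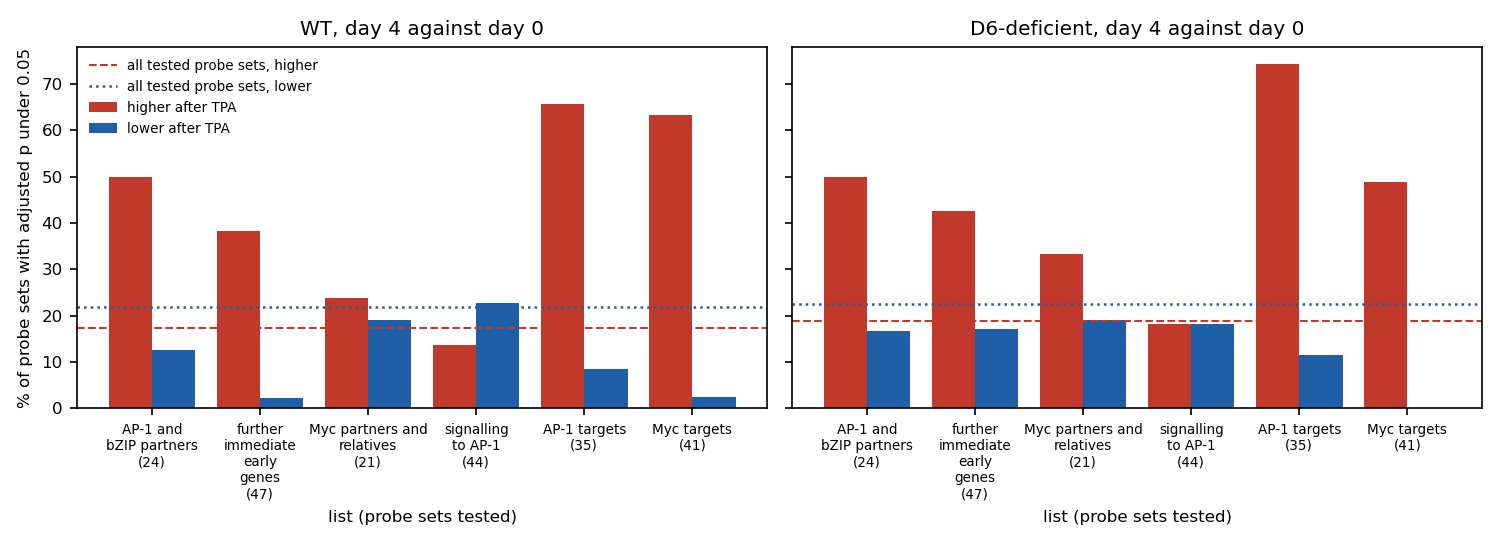
Share of the tested probe sets of 6 gene lists (number of probe sets in brackets) that were higher (red) or lower (blue) than day 0 at day 4 at an adjusted p under 0.05, in WT (left) and D6-deficient mice (right); bars start at 0, and the dashed and dotted lines are the shares over all tested probe sets. The AP-1 targets had 65.7% and 74.3% higher, the signalling list 13.6% and 18.2%.

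At day 0, in control skin given no TPA, 1 of 24 bZIP partner probe sets (Cebpb, 0.57, adjusted p = 0.0174) exceeded its WT level in D6-deficient skin. So did 2 of 47 further immediate early probe sets (Ier3, 0.72, and Nr4a3, 1.17) and 5 of 35 AP-1 target probe sets (S100a8, Sprr2d, Sprr1b and 2 of Cd44). A further Cd44 probe set was not called. In these lists 0 were lower, against 1.57% of all tested probe sets called in either direction. Sprr2d and Sprr1b, which encode cornified envelope proteins, were higher by 2.63 and 2.23 (adjusted p = 0.0130 and 0.0362), and S100a8, also a neutrophil gene, by 2.41 (adjusted p = 0.0352). Junb at day 0 (0.52) had the same sign and missed the threshold. The keratins were at 13.06 to 13.20 in D6-deficient and 12.48 to 12.63 in WT skin at day 0, with 3 of 6 keratin probe sets called higher, and their part in these differences was not tested. Over all 5 days 13 of the 35 AP-1 target probe sets were higher and 2 lower in D6-deficient skin, against 5.52% of all tested called in either direction, and these lists were chosen with the data known.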

How the data were processed

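RNA of whole back skin was hybridized to Affymetrix mouse arrays, 30 in all. Per the labels, the authors deposited linear intensity values already background-corrected, quantile-normalized and summarized per probe set by RMA, whose version is not given in the sources used here. RMA makes array distributions alike and so hides a change shared by most genes. A second deposited table holds a sample sheet only and was not used. Intensities were taken to log2 (2.26 to 14.98), 64 control probe sets were left out, and the 20% of probe sets with the lowest mean (9008, below 3.72) were not tested. limma 3.58.1 in R 4.3.3 fitted 1 mean for each of the 10 groups on all 30 arrays (20 residual degrees of freedom), with Benjamini-Hochberg adjustment per comparison and calls at an adjusted p under 0.05. Python 3.11.15 was used for permutations and figures. The steps were tested on simulated data. The number of arrays limits the precision. The genes and lists were chosen with earlier results of these data known. Every probe set of the 10 genes was named, with the one of highest mean quoted in full, and so were the 3 genes of each list with the largest called change at day 4 in D6-deficient mice, those behind a count of 5 or fewer, and the 3 genes most like each member with a called TPA change. Alternatives were other filters, a 3-fold threshold, the methods' t-test, averaged probe sets, arrays of 1 comparison only, the replicate number or hybridization controls as terms, equal medians, a variance trend and leaving out each array.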

Additional observations from a re-analysis of the deposited data

Results flagged for a closer look

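No member of the 10 genes was singled out, and the values below are differences between the genotypes' TPA changes (D6-deficient minus WT, log2 scale, limma adjusted p under 0.05) among genes of the lists. At day 2 the early genes Klf4 (-1.05), Egr2 (-1.3 and -1.51 on 2 probe sets), Egr3 (-1.62) and Nr4a3 (-1.17) differed, with changes of 0.46, 0.15, 0.20, 0.67 and 0.54 in WT and -0.60, -1.16, -1.31, -0.95 and -0.63 in D6-deficient skin. The D6-deficient minus WT difference at day 0, which enters these values, was 0.53, 0.62, 0.69, 0.87 and 1.17, of which that of Nr4a3 passed. At day 2 itself it was -0.53, -0.68, -0.82, -0.75 and -0.00, and none passed (adjusted p = 0.166, 0.175, 0.113, 0.232 and 0.996). Klf4, Egr3 and Nr4a3 each had another tested probe set, whose difference between the genotypes' changes did not pass.

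The day 2 difference was -0.72 for Mxd1 on 1 of 3 probe sets, 0.84 for Elk3 on 1 of 4 and -0.76 for Mapk8 on 1 of 5. The genotypes compared directly at day 2 differed by -0.21 for Mxd1 and 0.37 for Elk3, which did not pass (adjusted p = 0.555 and 0.149), and by -0.77 for Mapk8, which did (adjusted p = 0.00129). Among AP-1 targets it was 2.16 and 2.15 for the 2 probe sets of Mmp9, 1.29 for Mmp3 and 1.29 for Mmp10, and 1.41 for Plaur, all proteases or a protease receptor. It was -2.78 for Sprr2d, -1.77 and -1.96 for the 2 probe sets of Ivl, -1.2 for Tgm1 and -0.59 for Cd44 on 1 of 3 probe sets. Of these, Sprr2d and Cd44 were higher in D6-deficient skin at day 0 (2.63 and 0.63). Compared directly at day 2, Sprr2d, Cd44, Tgm1 and Mmp3 did not pass (adjusted p = 0.946, 0.939, 0.283 and 0.0731), and the others of these targets did. Among Myc targets it was -1.86 for Eif4e on 1 probe set. At day 4 it was 1.1 (adjusted p = 0.0490) for Hmga2 on 1 of 3 probe sets, a dim one with a mean of 3.73 against the lowest mean kept of 3.72, and it passed without 1 of the 12 arrays and under 3 of 10 other settings. The differences of Elk3, Mmp9, Mmp10, Plaur and Eif4e stayed past the threshold without each of the 12 arrays in turn, and the others lost it without at least 1 array.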

How the results depend on the processing

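Counts below are of the 14 probe sets past the threshold, in the order of days 1, 2, 4 and 6. Requiring more than 3-fold as well left 0, 0, 2 and 0 in WT and 0, 0, 1 and 0 in D6-deficient mice, 0 for the genotype at day 2 and 0 over all days. The methods' t-test, unadjusted with the same fold, gave the same counts, and after Benjamini-Hochberg it gave 0, 1, 3 and 0 in WT mice, 0 at days 1 and 6 in D6-deficient mice, 0 for the genotype at day 2 and 0 over all days. Over all days this t-test ignored the day, so the differences between days entered its spread. Its count there is therefore not comparable with that of limma. Averaging a gene's probe sets left 10 features, of which 2, 2 and 3 were called at days 1, 2 and 4 in WT and 2, 3, 3 and 2 in D6-deficient mice, and Jund was called on no day. There the WT day 4 change of Rasgrp1 turned from -0.38 to 0.0634. With the arrays of 1 comparison only, 2 were called at day 1 and 0 at day 6 in WT mice, and 3 at day 1 and 2 at day 6 in D6-deficient mice. With no filter 1 was called at day 6 in WT mice. With the hybridization controls as a term 1 (Junb) was called for the genotype at day 0. The cause of these differences was not tested.

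The replicate number was not taken to pair the arrays: the correlation of same-numbered deviations was above 0.1 in 31 of 135 cases (from -0.35 to 0.48), and for all 3 numbers in 2 of 45 pairs of groups, D6-deficient day 1 with day 2 and with day 6. With it as a replicate block, 1 was called at day 6 in WT mice, and Fos at day 6 in D6-deficient mice passed (adjusted p = 0.0482).

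Leaving out 1 array gave 0 to 4, 2 to 4, 5 to 5 and 0 to 2 in WT mice, 1 to 4, 3 to 5, 5 to 6 and 2 to 4 in D6-deficient mice, 0 to 1 for the genotype at days 2 and 4, and 1 to 3 over all days. The WT day 1 count was 0 without WT day 0 array 2 or day 1 array 1, and the WT day 6 count was 0 without WT day 0 array 3 or day 6 array 3. The D6-deficient day 1 count was 1 without D6-deficient day 0 array 2 or 3. The other comparisons stayed at 0. A 40% filter, equal medians and a variance trend moved no count of calls by more than 1.5 times.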
